A study of Rattus norvegicus with 8 samples.

Results

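The genes described here are Myc, Ier2, Ier3, Zfp36, Zfp36l1 and Zfp36l2, 6 of the 11377 genes tested on Affymetrix arrays of cultured rat vascular smooth muscle cells. They were chosen by name, as early genes of growth control and mRNA decay, with earlier results of these data known. Each was read from its brightest probe set, a set of short probes summarised to 1 value. Together they have 8 of the 31099 probe sets of the array: 3 for Zfp36l2 and 1 for each of the other genes. The cells, isolated from the thoracic aorta of Sprague-Dawley rats (male), were grown with 10% serum for 2 passages, with no age given. Each group has 2 arrays. Cells transfected for 48 h with an siRNA against the long non-coding RNA Giver then received 100 nM angiotensin II (Ang II) for 3 h (siGiver Ang II) or phosphate-buffered saline (siGiver PBS). Cells transfected with a non-targeting siRNA received the same 2 treatments (siNTC Ang II and siNTC PBS). All 4 groups therefore carry a transfected siRNA, each of a single kind, and nothing in the labels ties the 2 arrays to separate cultures or animals. P-values thus cover only the variation between these arrays, some or all of which may be technical, and the level of Giver itself was not analysed here.

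Early genes are switched on within minutes to hours of a growth or stress signal without new protein synthesis. Ang II acts on smooth muscle cells through a G-protein-coupled receptor that leads to calcium release and MAP kinase activity. Myc is a transcription factor that pairs with Max and drives genes of ribosome production and cell growth. Ier2 and Ier3 are short-lived early response proteins, Ier2 nuclear and Ier3 linked to survival and to ERK signalling. Zfp36 (tristetraprolin), Zfp36l1 and Zfp36l2 are zinc finger proteins that bind AU-rich elements in the 3' ends of mRNAs and recruit the enzymes that shorten the poly(A) tail. Their targets include many early and inflammatory transcripts, so the family acts as a brake on the same kind of response in which it is induced.

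Of the 6 genes, 4 matched the RefSeq promoter table (build GRCr8), and their promoters are shown. They are Ier2, Zfp36, Zfp36l2 and Zfp36l1, while Myc and Ier3 had no entry. Each line gives the 250 bases before the annotated start, with matches to the searched motifs in capitals. The windows lie at chr19:40399123-40399372 (plus strand) for Ier2, chr1:92799109-92799358 (minus strand) for Zfp36, chr6:16242372-16242621 (plus strand) for Zfp36l2 and chr6:104668691-104668940 (minus strand) for Zfp36l1.
Ier2: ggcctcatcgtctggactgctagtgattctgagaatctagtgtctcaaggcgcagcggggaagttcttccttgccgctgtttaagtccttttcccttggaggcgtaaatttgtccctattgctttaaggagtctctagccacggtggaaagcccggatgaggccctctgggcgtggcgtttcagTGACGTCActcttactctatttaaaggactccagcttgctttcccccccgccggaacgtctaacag
Zfp36: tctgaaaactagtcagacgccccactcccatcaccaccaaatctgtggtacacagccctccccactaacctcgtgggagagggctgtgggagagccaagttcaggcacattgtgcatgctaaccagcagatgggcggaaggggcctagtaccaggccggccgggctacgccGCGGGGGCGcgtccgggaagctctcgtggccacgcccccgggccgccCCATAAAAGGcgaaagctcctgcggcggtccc
Zfp36l2: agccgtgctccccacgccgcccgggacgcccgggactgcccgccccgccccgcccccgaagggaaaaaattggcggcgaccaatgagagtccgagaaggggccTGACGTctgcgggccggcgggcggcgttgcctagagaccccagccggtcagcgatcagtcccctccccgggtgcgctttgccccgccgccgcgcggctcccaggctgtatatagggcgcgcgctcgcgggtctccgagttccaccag
Zfp36l1: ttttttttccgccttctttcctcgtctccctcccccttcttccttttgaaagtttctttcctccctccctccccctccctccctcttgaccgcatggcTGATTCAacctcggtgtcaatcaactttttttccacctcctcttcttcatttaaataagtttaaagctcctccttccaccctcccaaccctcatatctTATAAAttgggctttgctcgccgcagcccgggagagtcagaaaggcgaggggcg

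Both strands were searched for short motifs that early-gene factors are known to bind. The cAMP response element was read as TGACGTCA, and its part, which overlaps it, as TGACGT. The AP-1 site was read as TGANTCA. The Egr site was read as GCGNGGGCG. The TATA box was read as TATAAA. The E-box that Myc and Max bind was read as CACGTG. The CArG box is the site of serum response factor. The Ier2 window held TGACGTCA at 66 to 59 bases before the start, an element found in 1.59% of the 33469 rat windows of the same length. The Zfp36 window held a CArG box, CCATAAAAGG, at 32 to 23 bases before the start, a motif in 1.5% of windows, and GCGNGGGCG at 79 to 71 bases, in 4.29%. The Zfp36l2 window held TGACGT at 147 to 142 bases, in 6.95% of windows. In the Zfp36l1 window, TGANTCA (6.34% of windows) lay at 152 to 146 bases and TATAAA (12.9%) at 54 to 49 bases. CACGTG, in 5.59% of windows, was in none of these 4. A match is a run of letters and not a shown site of binding.

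Ang II raised all 6 genes in siGiver cells and 4 of the 6, Ier2, Zfp36, Zfp36l2 and Ier3, in siNTC cells. In siGiver cells 9.11% of all genes tested were called higher with Ang II, and in siNTC cells 3.96%. A call is a Benjamini-Hochberg adjusted p under 0.05 from limma over all 11377 genes, and all values below are on the log2 scale. The Ang II effect was larger in siGiver than in siNTC cells for 5 of the 6 genes by the test of that difference (the interaction), against 3.35% of all genes called in that direction. Between the siRNAs, Myc was higher in siGiver cells in both treatments, while in PBS Ier3 and Zfp36l1 were lower in siGiver cells and Ier2, Zfp36 and Zfp36l2 did not pass. In bulk RNA, fewer responding cells and less RNA per cell cannot be told apart. These comparisons share arrays: the siGiver Ang II arrays enter both the Ang II effect in siGiver cells and the siRNA difference with Ang II, so their values are given side by side and are not separate evidence.

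**Figure D1:**
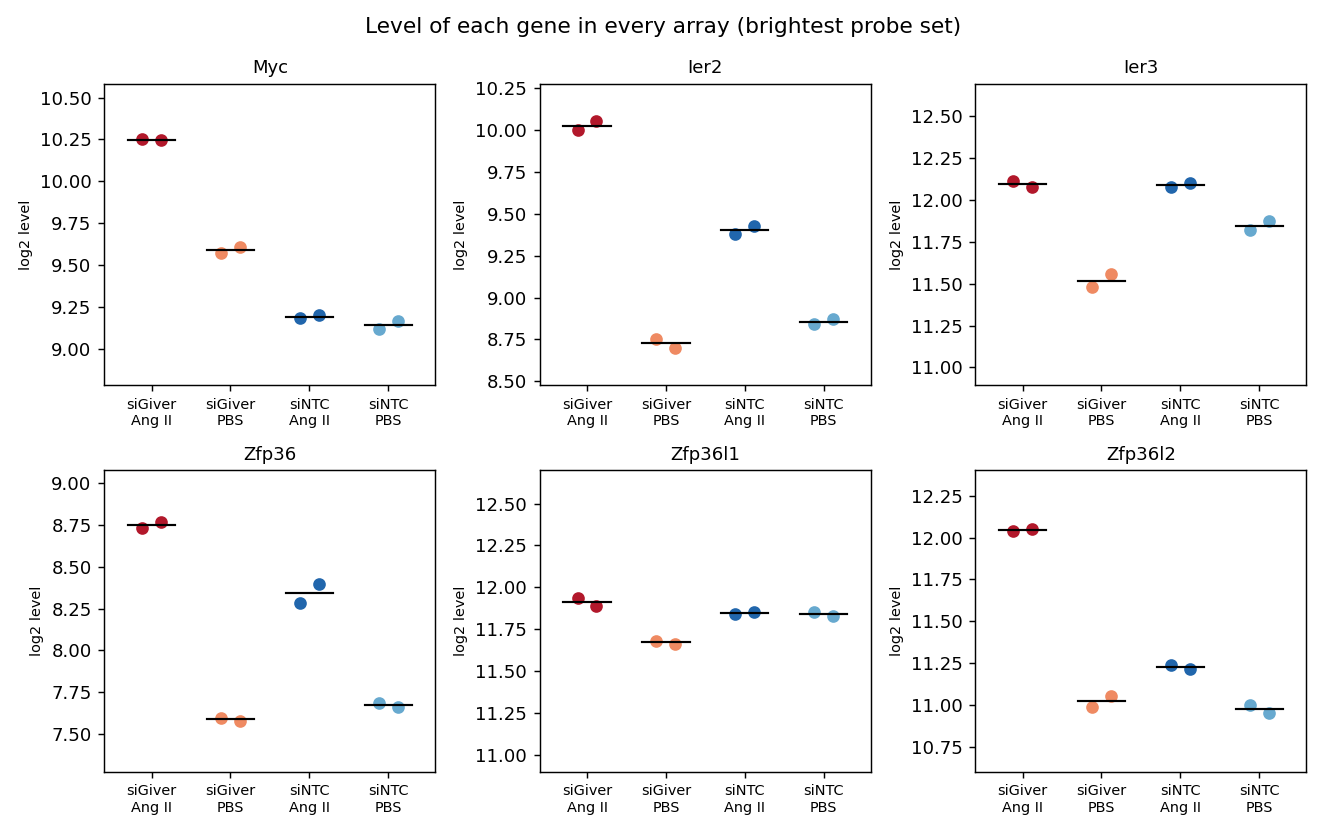
Level of each gene (log2, vertical axis, the same span in each panel) in every array of the 4 groups (horizontal axis), with points for the 2 arrays and a line at the group mean. Myc shows a step between siRNAs in both treatments, Ier3 reaches 12.1 in both Ang II groups, and Zfp36l1 spans only 0.24 between its highest and lowest group means.

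Myc stood at 10.25 in both siGiver Ang II arrays, against 9.57 and 9.61 in the siGiver PBS arrays. In control cells it stood at 9.18 and 9.20 with siNTC and Ang II, against 9.12 and 9.17 with siNTC and PBS. The 4 siGiver arrays all lay above the 4 siNTC arrays, and Ang II arrays lay above PBS arrays in each siRNA, by a narrow margin in siNTC cells. With Ang II, Myc rose by 0.66 ± 0.044 (SE, 2 arrays per group) in siGiver cells, or 1.58-fold, with adjusted p = 8.33e-05. In siNTC cells the difference was 0.05 ± 0.044 and did not pass (limma, adjusted p = 0.558), with a 95% interval of -0.052 to 0.15. The siRNA difference was 1.06 ± 0.044 with Ang II (2.08-fold, limma adjusted p = 7.14e-06), which placed Myc at rank 61 of the 11377 genes from the highest. In PBS it was 0.45 ± 0.044 (1.36-fold, limma adjusted p = 0.000273). The Ang II effect exceeded that of siNTC cells by 0.61 ± 0.062 (limma, adjusted p = 0.00204). The levels thus ran siGiver Ang II, siGiver PBS, siNTC Ang II and siNTC PBS from high to low, and the last pair did not pass.

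Ier2, the nuclear early response gene whose promoter window holds the cAMP response element, stood at 10.00 and 10.05 in siGiver Ang II arrays, against 8.75 and 8.70 in siGiver PBS arrays. It stood at 9.38 and 9.43 with siNTC and Ang II, against 8.84 and 8.87 with siNTC and PBS. The Ang II and PBS arrays were well apart in both siRNAs, and the siGiver PBS arrays were the lowest of all. Ier2 rose by 1.30 ± 0.047 (2.46-fold, limma adjusted p = 4.88e-06) in siGiver cells, the largest Ang II response of the 6 genes in that arm. It rose by 0.55 ± 0.047 (1.46-fold, limma adjusted p = 0.000879) in siNTC cells. The Ang II effect was larger in siGiver cells by 0.75 ± 0.066 (limma, adjusted p = 0.00108). Between the siRNAs, Ier2 was higher in siGiver cells with Ang II by 0.62 ± 0.047 (limma, adjusted p = 5.83e-05). In PBS the difference was -0.13 ± 0.047 and did not pass (limma, adjusted p = 0.0677), although the arrays did not overlap. It passed in 2 of 17 alternative settings, with adjusted p between 0.0341 and 0.242.

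Ier3, an early gene of cell survival, showed another pattern. It stood at 12.11 and 12.08 in siGiver Ang II arrays, against 11.48 and 11.56 in siGiver PBS arrays. With siNTC it had 12.08 and 12.10 after Ang II, against 11.82 and 11.87 after PBS. The 2 Ang II groups overlapped, and the siGiver PBS arrays lay below the siNTC PBS arrays. In PBS, Ier3 was lower in siGiver cells, with a difference of -0.33 ± 0.048 (limma, adjusted p = 0.00175). With Ang II the difference was 0.0032 ± 0.048 (limma, adjusted p = 0.967), with a 95% interval of -0.11 to 0.12. Ang II raised Ier3 by 0.58 ± 0.048 (1.49-fold, limma adjusted p = 0.000276) in siGiver cells and by 0.25 ± 0.048 (1.19-fold, limma adjusted p = 0.0283) in siNTC cells, a difference of 0.33 ± 0.069 (limma, adjusted p = 0.0327). That difference lost its call when any 1 of the 8 arrays was left out (0.29 to 0.37) and passed in 5 of 16 alternatives, with adjusted p between 3.16e-05 and 0.104. The siNTC response lost its call without any 1 siNTC array or either siGiver Ang II array (0.22 to 0.27) and passed in 9 of 17 alternatives, with adjusted p between 1.49e-05 and 0.148.

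**Figure D2:**
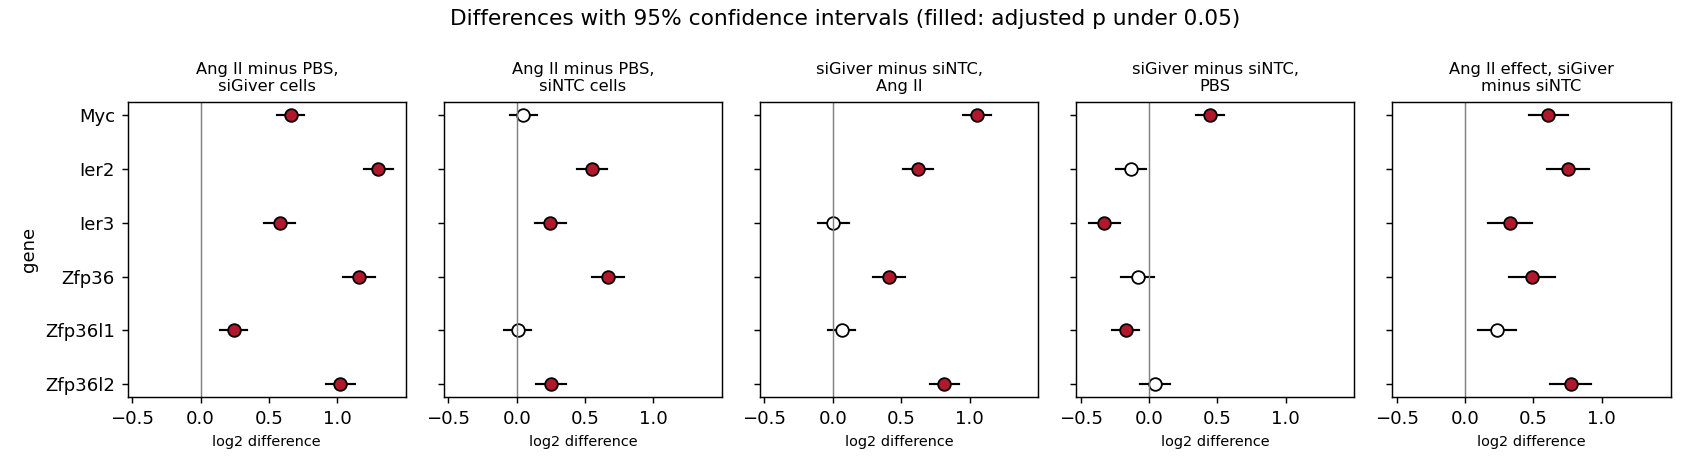
Log2 differences (horizontal axis) of the 6 genes (vertical axis) with 95% confidence intervals from the limma fit, for the Ang II effect in siGiver and siNTC cells, the siRNA difference in Ang II and PBS, and the difference between the Ang II effects. Filled points passed adjusted p under 0.05. Every gene is to the right of 0 in the first panel, while in PBS 3 of the 6 pass, Myc above 0 and Ier3 and Zfp36l1 below.

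Among the mRNA decay proteins, Zfp36, whose window holds the CArG box, stood at 8.73 and 8.77 in siGiver Ang II arrays, against 7.60 and 7.58 in siGiver PBS arrays. With siNTC it had 8.29 and 8.40 after Ang II, against 7.68 and 7.66 after PBS. The order of groups was that of Ier2, with the siGiver Ang II arrays highest and the siGiver PBS arrays lowest. Zfp36 rose with Ang II by 1.16 ± 0.051 (2.24-fold, limma adjusted p = 9.89e-06) in siGiver cells. In siNTC cells it rose by 0.67 ± 0.051 (1.59-fold, limma adjusted p = 0.000439), the largest response of the 6 genes in that arm and rank 63 of the 11377 genes. The difference between these responses was 0.49 ± 0.072 (limma, adjusted p = 0.0091). With Ang II, Zfp36 was higher in siGiver cells by 0.41 ± 0.051 (limma, adjusted p = 0.000538). In PBS the difference was -0.08 ± 0.051 and did not pass (limma, adjusted p = 0.255), with a 95% interval of -0.20 to 0.036.

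Zfp36l2 stood at 12.04 and 12.05 in siGiver Ang II arrays, against 10.99 and 11.05 in siGiver PBS arrays. With siNTC it had 11.24 and 11.22 after Ang II, against 10.9998 and 10.954 after PBS. The siGiver Ang II arrays stood apart from the other 6, and the PBS arrays of the 2 siRNAs overlapped. Ang II raised it by 1.02 ± 0.046 (2.03-fold, limma adjusted p = 1.09e-05) in siGiver cells and by 0.25 ± 0.046 (1.19-fold, limma adjusted p = 0.0213) in siNTC cells. The difference between these responses, 0.77 ± 0.065 (limma, adjusted p = 0.000847), was the largest interaction of the 6 genes and rank 55 of the 11377. The siRNA difference was 0.82 ± 0.046 with Ang II (limma, adjusted p = 1.84e-05). In PBS it was 0.04 ± 0.046 (limma, adjusted p = 0.501), with a 95% interval of -0.062 to 0.15. The siNTC response lost its call without any 1 siNTC array (0.23 to 0.27) and passed in 12 of 17 alternatives, with adjusted p between 2.32e-05 and 0.104.

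The 2 dimmer Zfp36l2 probe sets, tested among 16140 probe sets on their own, moved the same way with Ang II in siGiver cells. Probe set 1389851_at had 8.02 and 7.82 in siGiver Ang II arrays, against 6.87 and 6.59 in siGiver PBS arrays. In control cells it had 7.06 and 7.14 with siNTC and Ang II, against 6.72 and 6.77 with siNTC and PBS. Its rise in siGiver cells was 1.19 ± 0.10 (limma, adjusted p = 0.000417), close in size to that of the brightest probe set. In siNTC cells it had 0.35 ± 0.10 and did not pass (limma, adjusted p = 0.0999), and the difference between the responses was 0.83 ± 0.14 (limma, adjusted p = 0.022). Probe set 1375344_at, the dimmest of the 3, had 6.43 and 6.51 in siGiver Ang II arrays, against 6.08 and 6.02 in siGiver PBS arrays. It had 6.17 and 6.12 with siNTC and Ang II, against 6.01 and 6.03 with siNTC and PBS. Its rise was smaller, 0.42 ± 0.052 (limma, adjusted p = 0.00246) in siGiver cells, and its difference between the responses, 0.29 ± 0.074, did not pass (limma, adjusted p = 0.0765). In siNTC cells it had 0.13 ± 0.052 and did not pass (limma, adjusted p = 0.218). The Zfp36l2 call in siNTC cells thus rests on the brightest of the 3 probe sets. RefSeq lists a rat pseudogene of this gene, Zfp36l2-ps1, and whether the probes tell them apart was not tested.

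**Figure D3:**
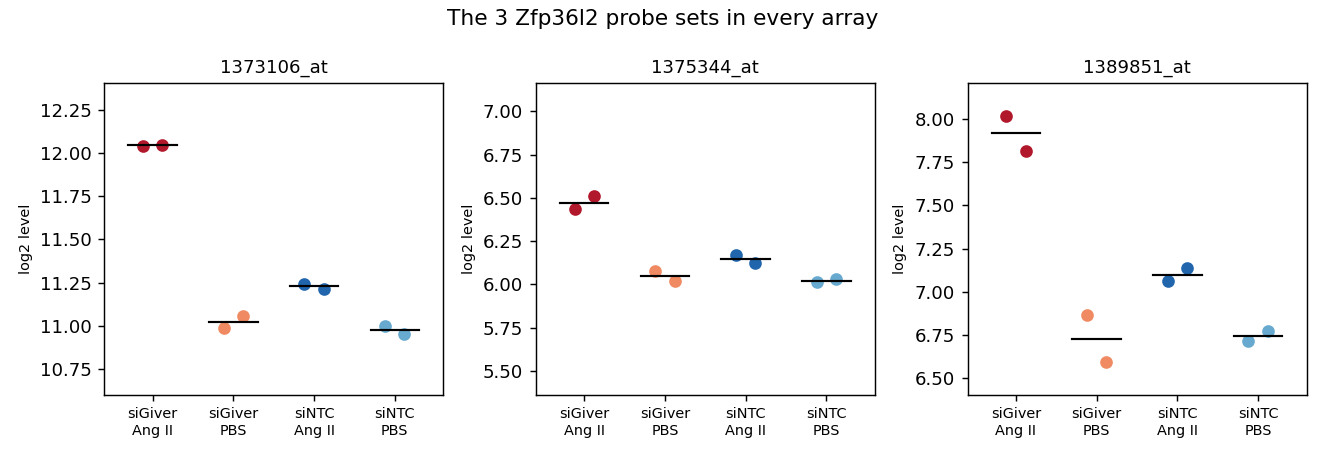
Level (log2, vertical axis, the same span in each panel) of the 3 Zfp36l2 probe sets in every array of the 4 groups (horizontal axis), with a line at each group mean. The siGiver Ang II arrays are highest in all 3, and the step is smallest for the dimmest probe set, 1375344_at.

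Zfp36l1 moved least. It stood at 11.94 and 11.89 in siGiver Ang II arrays, against 11.68 and 11.66 in siGiver PBS arrays. It stood at 11.84 and 11.85 with siNTC and Ang II, against 11.85 and 11.83 with siNTC and PBS. The 2 siNTC groups overlapped, and the siGiver PBS arrays lay below all others. Ang II raised it by 0.24 ± 0.043 (1.18-fold, limma adjusted p = 0.00927) in siGiver cells, a call lost without siGiver Ang II replicate 1 (0.22) and kept in 16 of 17 alternatives, with adjusted p between 3.88e-06 and 0.0597. In siNTC cells the difference was 0.0071 ± 0.043 (limma, adjusted p = 0.942), with a 95% interval of -0.093 to 0.11. In PBS, Zfp36l1 was lower in siGiver cells, with a difference of -0.17 ± 0.043 (limma, adjusted p = 0.0185), a call lost without either siGiver PBS array (-0.18 and -0.16) or siNTC PBS replicate 1 (-0.16), with adjusted p between 0.000136 and 0.0811 over 17 alternatives. With Ang II the siRNA difference was 0.07 ± 0.043 and did not pass (limma, adjusted p = 0.254). The difference between the Ang II responses was 0.23 ± 0.06 and did not pass (limma, adjusted p = 0.0654), although it passed in 2 of 16 alternatives, with adjusted p between 0.000731 and 0.179.

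Counted over the 6 genes, 4 were called higher in siGiver than siNTC cells with Ang II, against 19.5% of all genes, and none lower, against 24.8%. In PBS, 1 was called higher, against 16.0% of all genes, and 2 lower, against 19.1%. Arrays of the 2 siRNAs did not overlap for 4 genes lower in PBS, while 35.7% of all genes showed that.

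The other genes of these pathways were taken from lists of the Myc network, Myc targets, early growth control, mRNA decay and Zfp36 targets. Among 11 measured partners and antagonists of Myc, Ang II in siGiver cells raised Mlx (0.40 ± 0.050), Mxd1 (0.27 ± 0.055) and Mlxip (0.25 ± 0.056) and lowered Mxi1 (-0.66 ± 0.068), while 9.11% of all genes were called higher. The Mxd1 call was lost without either siGiver Ang II array or siGiver PBS replicate 2 (0.23 to 0.27). The Mlxip call was also lost without those arrays (0.19 to 0.27), on averaging its probe sets (0.144) and with only the 4 arrays compared (0.25). The median over the list was 0.056, against -0.028 over all genes. Mxi1, which competes with Myc for Max, averaged 7.19 in siGiver Ang II arrays, against 7.85 in siGiver PBS arrays. It averaged 8.28 with siNTC and Ang II, against 8.34 with siNTC and PBS. Mxi1 was lowest in the group where Myc was highest, and its siRNA difference was -1.09 ± 0.068 with Ang II and -0.48 ± 0.068 in PBS. Its Ang II effect differed between the siRNAs by -0.60 ± 0.097 (limma, adjusted p = 0.0129), a call lost on averaging its probe sets (-0.296) or without siGiver PBS replicate 1 (-0.57), siNTC Ang II replicate 1 (-0.59) or siNTC PBS replicate 1 (-0.57). In siNTC cells limma called 0 of the 11 with Ang II, with 1 at an unadjusted p under 0.05 and 0 with a trended, robust limma fit (median 0.023, against 0.0058 over all genes). Between the siRNAs, 5 were higher and 4 lower with Ang II and 6 higher and 2 lower in PBS, against 19.5%, 24.8%, 16.0% and 19.1% of all genes, with Mxd3 higher by 0.64 ± 0.096 in each.

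Of 21 measured Myc target genes of growth, 8 rose with Ang II in siGiver cells and none fell, and 0 passed in siNTC cells, where 8 had an unadjusted p under 0.05 and a trended, robust limma fit called 4 higher and 1 lower. Of all genes, 9.11% were called higher in siGiver cells and 3.96% in siNTC cells. The list medians were 0.11 in siGiver cells and 0.076 in siNTC cells, against -0.028 and 0.0058 over all genes. The siGiver rises included Nolc1 (0.39 ± 0.050), a nucleolar protein, the cap-binding factor Eif4e (0.38 ± 0.051), the RNA polymerase I subunit Polr1b (0.36 ± 0.061) and the transferrin receptor Tfrc (0.35 ± 0.048). The Eif4e call did not hold when its probe sets were averaged (0.163). By the test of the difference, 1 of the 21 passed, Tfrc, by 0.55 ± 0.067 (limma, adjusted p = 0.00482), and 3.35% of all genes were called higher. Between the siRNAs with Ang II, 13 were higher and 2 lower, against 19.5% and 24.8% of all genes (median 0.25, against -0.026), with Tfrc (0.78 ± 0.048), the purine synthesis enzyme Ppat (0.70 ± 0.086), the ribosome assembly factor Bop1 (0.49 ± 0.056) and the polyamine synthesis enzyme Odc1 (0.39 ± 0.044). In PBS 9 were higher and 2 lower, against 16.0% and 19.1% (median 0.13, against -0.0047), with Odc1 at 0.41 ± 0.044, Bop1 at 0.32 ± 0.056, Cdk4 at 0.26 ± 0.044 and the nucleoside diphosphate kinase gene Nme1 lower at -0.32 ± 0.051.

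Of 14 other early growth-control genes, 6 rose and 1 fell with Ang II in siGiver cells (median 0.11), and 5 rose in siNTC cells (median 0.18). Of all genes, 9.11% were called higher in siGiver cells and 3.96% in siNTC cells. The kinase Sgk1 rose most in siGiver cells, by 2.01 ± 0.069 (4.04-fold), and rose by 0.62 ± 0.069 in siNTC cells. The pseudokinase Trib1 rose by 1.15 ± 0.11 in siGiver cells, and in siNTC cells it had 0.24 ± 0.11 and did not pass. Phlda1 rose by 0.99 ± 0.065 in siGiver and 0.29 ± 0.065 in siNTC cells (limma, adjusted p = 0.045 in siNTC cells). Csrnp1 rose by 1.34 ± 0.11 in siGiver and 0.75 ± 0.11 in siNTC cells, where it had the largest rise of the list. The Csrnp1 call in siNTC cells was lost without either siNTC Ang II array (0.73 and 0.77) or siNTC PBS replicate 1 (0.61). Ier5, a relative of Ier2, rose by 0.37 ± 0.057 in siGiver cells (limma, adjusted p = 0.00497) and by 0.25 ± 0.057 in siNTC cells. Its siNTC call was lost on averaging its probe sets (0.184) and without siNTC Ang II replicate 1 (0.18), either siNTC PBS array (0.24 and 0.26) or any siGiver array. That call was also lost with no filter, every probe set on its own, only the 4 arrays compared or a replicate block (0.25 in each). Gadd45g, a growth arrest gene, ran the other way. It rose by 0.33 ± 0.061 in siNTC cells (limma, adjusted p = 0.0235), a call lost without any 1 siNTC array (0.27 to 0.38), and had -0.0088 ± 0.061 in siGiver cells, which did not pass. The difference between its responses was -0.34 ± 0.086 and did not pass (limma, adjusted p = 0.0648). The Ang II effect was larger in siGiver cells for Sgk1 (1.40 ± 0.098), Trib1 (0.90 ± 0.16) and Phlda1 (0.70 ± 0.093), against 3.35% of all genes. The Trib1 difference lost its call without either siGiver PBS array, siNTC Ang II replicate 1 or either siNTC PBS array (0.80 to 0.94). Between the siRNAs with Ang II, 8 of the 14 were higher and 2 lower, against 19.5% and 24.8% of all genes, with Sgk1 at 1.38 ± 0.069, Phlda1 at 0.62 ± 0.065, Cited2 at 0.54 ± 0.044 and Ier5l at 0.41 ± 0.056. In PBS 4 were higher, against 16.0% of all genes, and these were Gadd45g (0.55 ± 0.061), Cited2 (0.46 ± 0.044), Gadd45a (0.43 ± 0.054) and Ier5l (0.41 ± 0.056).

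Next were the enzymes that Zfp36 proteins recruit and those that act after them. Of 19 measured genes of deadenylation and decay, 4 rose with Ang II in siGiver cells, against 9.11% of all genes. They were Cnot6l (0.31 ± 0.064) and Cnot11 (0.18 ± 0.045) of the CCR4-NOT deadenylase complex and the decapping cofactors Edc3 (0.20 ± 0.045) and Edc4 (0.17 ± 0.044). Each of these 4 calls was lost when 1 array was left out (Cnot6l 0.23 to 0.32, Cnot11 0.14 to 0.21, Edc3 0.18 to 0.22, Edc4 0.14 to 0.20 over the arrays whose removal ended the call). The Edc3 call was also lost on averaging its probe sets (0.228) and with only the 4 arrays compared (0.20). The Cnot11 (0.18) and Edc4 (0.17) calls were also lost with no filter, with only the 4 arrays compared and with a replicate block. The Edc4 call was lost too with every probe set on its own (0.17) and with cyclic loess scaling (0.15). In siNTC cells limma called 0, with 3 at an unadjusted p under 0.05 and 1 higher and 1 lower in the trended, robust fit. The test of the difference called 0, with 2 at an unadjusted p under 0.05, while 3.35% of all genes were called higher. The list medians were -0.080 and -0.037. Between the siRNAs with Ang II, 3 were higher and 8 lower, against 19.5% and 24.8% of all genes (median -0.054, against -0.026 over all genes), among them Edc3 at 0.40 ± 0.045, Cnot9 at 0.35 ± 0.05, the deadenylase Cnot8 at -0.39 ± 0.048 and the poly(A) ribonuclease Parn at -0.38 ± 0.054. In PBS 3 were again higher and 8 lower, against 16.0% and 19.1% of all genes (median -0.15, against -0.0047), with Cnot9 at 0.40 ± 0.05, Edc3 at 0.31 ± 0.045, Parn at -0.24 ± 0.054 and Cnot8 at -0.22 ± 0.048. The PBS calls of Parn and Cnot8 were each lost without either of 2 arrays (Parn -0.21 and -0.23, Cnot8 -0.18 in both cases).

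A further list, with 11 measured genes, held kinases of Zfp36 and other RNA-binding regulators, not all of them AU-rich element binders. Of these 11, Ang II in siGiver cells raised the kinase Mapkapk2 (0.35 ± 0.067), which phosphorylates Zfp36, and the RNase Zc3h12a (0.25 ± 0.061). The p38 kinase Mapk14 was lowered (-0.20 ± 0.047). Of all genes, 9.11% were called higher in this comparison and 816 of the 11377 lower. The calls of Mapkapk2, Zc3h12a and Mapk14 were lost when 1 array was left out (Mapkapk2 0.33, Zc3h12a 0.21 to 0.28, Mapk14 -0.21 to -0.16). Those of Mapkapk2 (0.35) and Mapk14 (-0.20) were also lost with only the 4 arrays compared. The Mapk14 call was lost on subtracting array medians (-0.18), and the Zc3h12a call with no filter (0.25). In siNTC cells limma called 0, with 3 at an unadjusted p under 0.05 and 1, lower, in the trended, robust fit. The test of the difference called 0, with 3 at an unadjusted p under 0.05. The shares of all genes called higher were 3.96% in siNTC cells and 3.35% in the test of the difference. Between the siRNAs 4 were higher and 1 lower with Ang II, against 19.5% and 24.8% of all genes. In PBS 1 was higher and 2 lower, against 16.0% and 19.1%. The decay-promoting binder Khsrp stood 0.40 ± 0.067 apart with Ang II and 0.43 ± 0.067 in PBS, both higher in siGiver cells, the PBS call being lost when its probe sets were averaged (0.189). The stabilising binder Elavl1 was higher by 0.26 ± 0.056 with Ang II, a call lost without siGiver Ang II replicate 2 (0.20). Tia1, a translational repressor, was lower in siGiver cells in PBS, with a difference of -0.71 ± 0.15, a call lost without siNTC PBS replicate 1 (-0.56).

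Transcripts known as Zfp36 targets, from work mostly in mouse and human cells, included inflammatory genes with large Ang II responses. Of 17 measured, 8 rose with Ang II in siGiver cells, against 9.11% of all genes, and 6 in siNTC cells, against 3.96%, and none fell. The list medians were 0.35 in siGiver cells and 0.20 in siNTC cells, against -0.028 and 0.0058 over all genes. The prostaglandin synthase Ptgs2 averaged 12.17 in siGiver Ang II arrays, against 9.99 in siGiver PBS arrays. It averaged 12.34 with siNTC and Ang II, against 11.66 with siNTC and PBS. The siGiver PBS mean was lowest, as for Ier2, Ier3, Zfp36 and Zfp36l1. Of those genes, only Ier3 and Zfp36l1 passed between the siRNAs in PBS. Ptgs2 rose by 2.18 ± 0.088 in siGiver and 0.69 ± 0.088 in siNTC cells, and its siRNA difference in PBS was -1.67 ± 0.088 (limma, adjusted p = 4.06e-05). The urokinase receptor Plaur rose by 1.80 ± 0.062 in siGiver and 0.69 ± 0.062 in siNTC cells. In siGiver and siNTC cells the chemokine Cxcl2 rose by 1.27 ± 0.091 and 0.79 ± 0.091, and the cytokine Il6 by 0.69 ± 0.045 and 0.63 ± 0.045. The Ang II effect was larger in siGiver cells for Ptgs2 (1.496 ± 0.12), Plaur (1.11 ± 0.087), Nfkbiz (0.46 ± 0.071) and Cxcl1 (0.34 ± 0.071), against 3.35% of all genes. The Nfkbiz call did not hold when its probe sets were averaged (0.169), and the Cxcl1 call without any 1 of 7 arrays, all but siGiver PBS replicate 2 (0.29 to 0.37). The Cxcl1 call was also lost with no filter, every probe set on its own or a replicate block (0.34 in each).

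Between the siRNAs with Ang II, 4 of the 17 were higher and 3 lower, against 19.5% and 24.8% of all genes (median -0.039, against -0.026), with Plaur at 1.01 ± 0.062, Il6 at -0.48 ± 0.045, the protease Plau at -0.51 ± 0.078 and the chemokine Ccl2 at -0.29 ± 0.045. In PBS 2 were higher and 7 lower, against 16.0% and 19.1% (median -0.094, against -0.0047), with Il6 at -0.54 ± 0.045, Nfkbiz at -0.47 ± 0.051 and Ccl2 at -0.36 ± 0.045 beside Ptgs2.

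**Figure D4:**
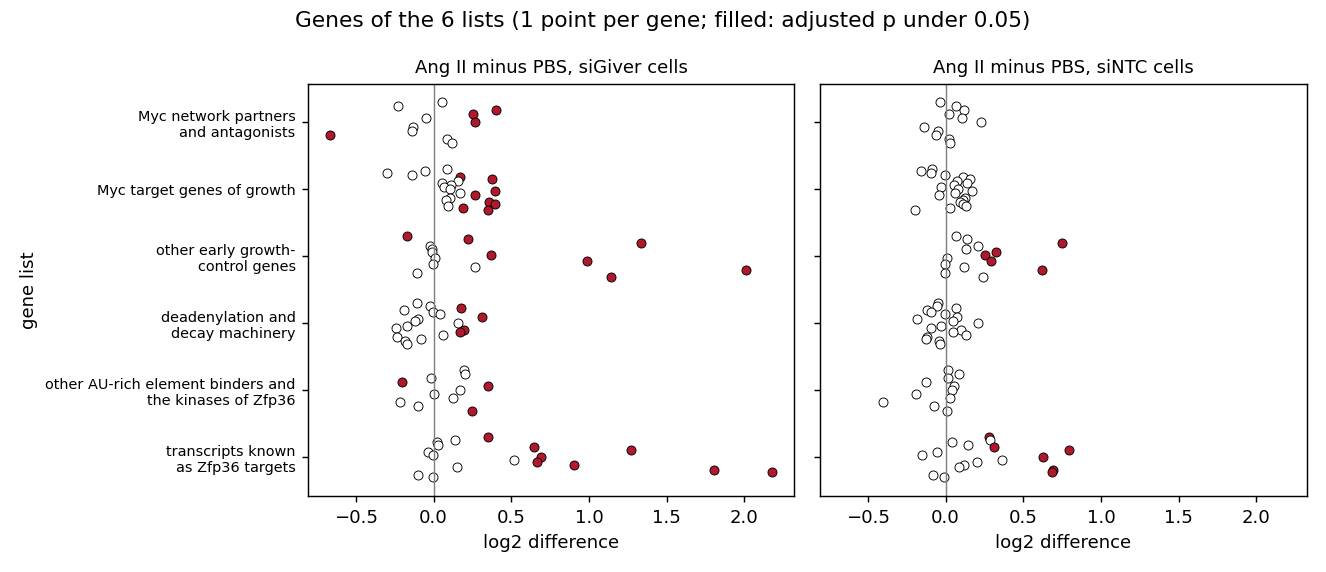
Log2 differences (horizontal axis) of the measured genes of each list (vertical axis), 1 point per gene, for Ang II minus PBS in siGiver cells (left) and siNTC cells (right), filled where adjusted p was under 0.05. Zfp36 targets have a median of 0.35 with Ang II in siGiver cells, and deadenylation and decay genes one of -0.080.

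Across the 8 arrays, which fall into 4 groups, the 6 genes did not share 1 pattern. Pearson's r was 0.989 between Ier2 and Zfp36, 0.946 between Ier2 and Zfp36l2 and 0.916 between Ier3 and Zfp36l1, but 0.179 between Myc and Ier3. The 8 points share 4 group means, so these values are a description. Locus and clone names were skipped. Among the 1852 genes whose group means spanned at least 0.5 log2, Myc was most like Flnc (r = 0.998), Mcam (0.997) and Foxs1 (0.997). Ier2 was most like Pvr (0.997), Noct (0.996) and Fst (0.996), and Ier3 most like Cxcl1 (0.997), Sprr1a (0.992) and Coq10b (0.991). Zfp36 was most like Rgs16 (0.995), Rcan1 (0.995) and Nr4a3 (0.994), and Zfp36l2 most like Dusp6 (0.998), Mmd (0.997) and Nuak2 (0.996). Zfp36l1 had the weakest match, with Gcnt2 (0.978), Trim36 (0.974) and Slc4a7 (0.969).

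Array medians ran from 6.15 to 6.19 log2, and arrays of a group correlated at 0.998. All 7 smooth muscle markers were above the filter of 4.81, with a mean level of 10.61 to 10.64 in siGiver Ang II, 10.49 to 10.503 in siGiver PBS, 10.21 to 10.23 in siNTC Ang II and 10.25 to 10.29 in siNTC PBS arrays. The 4 fibroblast markers were all above it too, at 8.42 to 8.43, 8.59, 8.11 to 8.16 and 8.45 to 8.54 in the same order of groups. Of 6 leukocyte markers, Cd14 and Cd68 were above the filter and Ptprc, Csf1r, Adgre1 and Itgam were not. The leukocyte list means were 4.52 to 4.64, 4.74 to 4.81, 4.74 to 4.76 and 4.65 to 4.72. Of 5 endothelial markers, 4 were on the array and 0 were above the filter (3.82 to 3.89, 3.91 to 4.01, 3.82 to 3.96 and 3.81 to 3.98). The smooth muscle and fibroblast lists were each higher in siGiver than in siNTC arrays in both treatments, as Myc was. The fibroblast list was also lower with Ang II than with PBS in each siRNA. The part of cell composition in these results was not tested.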

How the data were processed

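RNA of 8 samples, 2 for each of 4 groups, was measured on Affymetrix arrays. The authors deposited log2 values for 31099 probe sets, made with RMA in Partek per the submitters' processing notes, with versions not given in the sources used here. The method usually aligns the arrays, whose medians ran from 6.15 to 6.19, so a shift shared by all genes might not be seen. Of the probe sets, 20826 carried 1 gene symbol, 436 several and 9780 none in the platform annotation, and 57 were controls. The brightest probe set stood for a gene. Genes whose mean reached the 30th percentile of probe sets (4.81 log2) were kept, 11377 in all.

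limma 3.58.1 in R 4.3.3 fitted 1 mean per group over all 8 arrays (4 residual and 3.53 prior degrees of freedom) and 5 comparisons, with Benjamini-Hochberg adjustment over all genes tested within each comparison and a threshold of 0.05. The fit was run on simulated data with independent normal noise drawn from its own variance model. That run cannot show how the fit performs on these arrays. Arrays limit the precision by their number. Alternatives changed the filter, the choice of probe set, the scaling, the variance model, the arrays in the fit and the replicate block, and left out each array in turn. From each list, up to 4 genes with the smallest adjusted p past the threshold were named per comparison, and for likeness the 3 genes with the highest correlation. The 6 genes and the lists were chosen with earlier results of these data known.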

Additional observations from a re-analysis of the deposited data

Results flagged for a closer look

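The Ang II effect, taken as siGiver minus siNTC cells on the log2 scale, differed between the siRNAs by the interaction test (limma) for 5 of the 6 genes. Of all genes, 3.35% were called higher in that test. The differences were 0.61 for Myc, 0.75 for Ier2, 0.33 for Ier3, 0.49 for Zfp36 and 0.77 for Zfp36l2. A dimmer Zfp36l2 probe set, 1389851_at, gave 0.83. Among list genes the same test passed for Mxi1 (-0.60), Tfrc (0.55), Phlda1 (0.70), Sgk1 (1.40), Trib1 (0.90), Cxcl1 (0.34), Nfkbiz (0.46), Plaur (1.11) and Ptgs2 (1.496). Mxi1 was the only one of these with a negative difference. The calls of Ier3, Mxi1, Trib1, Cxcl1 and Nfkbiz were each lost in some of the alternatives, as given above. The cause of these differences was not tested. Groups of 2 arrays are too small for a check on single outlying arrays.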

How the results depend on the processing

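The calls of Ier2, Zfp36 and Myc, and those of Zfp36l2 other than the Ang II response in siNTC cells, kept their direction and side of the threshold in every alternative, except that Ier2 between the siRNAs in PBS passed in 2 of 17. Calls of Ier3 and Zfp36l1 that were lost without 1 array are given with their values above. The Ier3 response in siNTC cells also lost its call with no filter (0.25). With only the 4 arrays compared, the Ier3 and Zfp36l2 responses in siNTC cells and the Zfp36l1 siRNA difference in PBS lost their calls. The Ier3 interaction also lost its call with no filter, with every probe set on its own and with a replicate block. Without 1 array in turn, the Zfp36l1 difference with Ang II in siNTC cells ran from -0.006 to 0.0202 and the Ier3 siRNA difference with Ang II from -0.0139 to 0.0203, both around 0. Of the 6 genes, 5 to 6 were then called with Ang II in siGiver cells, 2 to 4 in siNTC cells, 4 between the siRNAs with Ang II, 2 to 3 in PBS and 4 in the interaction. Genes called over the whole array, 1852, 698, 5037, 3986 and 707 in the same order of comparisons, then ran from 866 to 1740, 226 to 526, 3952 to 5027, 2768 to 3779 and 356 to 435.

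A trended, robust limma fit called 2802 genes with Ang II in siGiver cells, 1496 in siNTC cells and 1490 in the interaction. A fit of only the 4 arrays compared called 1211 with Ang II in siGiver cells and 422 in siNTC cells, where 2 of the 6 genes passed. With no filter, 420 genes passed with Ang II in siNTC cells and 467 in the interaction, and with a filter at the 50th percentile 1066 passed in siNTC cells. Subtracting array medians moved the share of higher calls with Ang II in siGiver cells to 67.48%, against 55.94%, while the median of all genes moved by under 0.1. The labels do not say whether the replicate numbers pair the arrays. Correlations of replicate differences between groups ran from -0.17 to 0.096, which does not settle it. With a replicate block, 6, 4, 4, 3 and 4 of the 6 genes and 1603, 548, 4954, 3799 and 553 genes in all were called, the lost member call being the Ier3 interaction (0.33). The causes were not tested. The brightest probe set of each of the 6 genes lay at 7.58 log2 or more in every array, above the filter of 4.81.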
